A study of Homo sapiens with 6 samples.

Results

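Solute carriers are membrane proteins that move nutrients, metabolites and ions across the plasma membrane and the membranes of organelles. The carrier genes described here were chosen by name and by a measured level, with mitochondrial SLC25 genes and opposite-strand transcripts left out. They bear the prefix SLC, a family number and the letter A, and their mean level over the 6 libraries was at least 1 TPM. Of 293 carrier gene names of this form, 153 reached that level, among 34644 gene names in the whole data set. TPM, the unit of that level, is a read count divided by the exon length of the gene and scaled to the same sum in each library, so it is the scale used below to compare one gene with another. Families whose symbols carry another letter, such as SLC35B, are not covered by the rule.

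HK-2, the line used, is an immortalized culture of epithelium from the human proximal tubule. The IR+NC-LV group (n = 3) carried a negative control lentivirus and the IR+PR-LV group (n = 3) a lentivirus that overexpresses PRDM16, a zinc finger transcription regulator. Cells of both groups received the lentivirus, puromycin selection and a single X-ray dose of 8 Gy, and RNA was taken on day 7 after it, so that no library shows the carriers without irradiation. The labels do not say that the replicates were separate cultures, so p-values measure the spread between these libraries, which may be technical.

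Total counts ranged from 13407074 to 28540041 per library, and IR+NC-LV replicate 3 was the shallowest. PRDM16 itself had 2, 0 and 1 counts in IR+NC-LV and 14, 10 and 8 counts in IR+PR-LV, so every library matched its label, at a low count. Of 6 epithelial markers, 5 reached 1 TPM: KRT8 at 834, KRT18 at 632, KRT19 at 553, CDH2 (N-cadherin) at 229 and EPCAM at 53.3 TPM. The other, CDH1 (E-cadherin), averaged 0.42 TPM. Of 8 markers of the differentiated proximal tubule, 3 reached 1 TPM (GGT1 at 69.9, GATM at 6.30 and AQP1 at 2.92), and the endocytic receptor gene LRP2 had 3 counts in all 6 libraries together. None of 5 distal tubule markers and 1 of 5 blood and endothelial markers (CD68, at 177 TPM) reached 1 TPM. In bulk RNA, fewer cells that express a gene and less of its RNA per cell cannot be told apart.

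Carriers work in a few ways. Facilitators such as the glucose carriers of the SLC2 family let a solute run down its gradient. Symporters couple uptake to the sodium gradient that the Na+/K+ pump maintains, and exchangers trade a solute inside for one outside. In the kidney, cells of the proximal tubule reclaim glucose, amino acids, phosphate, bicarbonate and citrate through apical sodium-coupled carriers, and secrete drugs and urate through organic ion carriers. Several amino acid carriers are also known targets of ATF4, the transcription factor of the amino acid and integrated stress response, which binds with C/EBP partners to a composite element.

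RefSeq promoter windows (GRCh38.p14, from 250 bases before to 50 bases after a transcript start) were searched for the letters of that element, TGATGNAA on either strand. The list of ATF4 targets was chosen with earlier results of these data known. Whether ATF4 acts on these carriers here was not tested. The motif was in 4 of the 8 ATF4-listed carriers that matched the table, and SLC7A11 and SLC7A3 were not searched. In the lines below the sequence is that of the gene's strand, 5′ to 3′, and capitals mark the match. In SLC1A4 and SLC3A2 the match reads on the other strand, so its reverse complement is what appears. A gene can have several windows, and each position is counted from that window's own transcript start. For SLC1A4, SLC3A2 and SLC1A5 that start lies inside the gene, whose outermost start is at 64988479, 62856109 and 46788594. For SLC7A1 it is the gene's outermost start, 29595688.

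SLC1A4, chr2:64989376-64989415, plus-strand gene, match starting at -7 from the start site: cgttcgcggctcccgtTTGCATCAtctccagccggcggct

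SLC3A2, chr11:62881720-62881748, plus-strand gene, match starting at 37: taatgtgcaggactccTTACATCAgctcc

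SLC7A1, chr13:29595658-29595697, minus-strand gene, match starting at 7: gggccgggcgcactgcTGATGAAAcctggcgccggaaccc

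SLC1A5, chr19:46784888-46784927, minus-strand gene, match starting at -97: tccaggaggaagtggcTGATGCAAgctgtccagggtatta

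The windows of SLC6A9, SLC7A5, SLC38A2 and SLC43A1 held no match. The motif was in 3.62% of all 35116 windows, in at least 1 window of 4.46% of 27305 genes and in 12 of the 120 carriers that matched the table. A match describes letters in a window and is not a measured binding site.

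The 153 carriers together held between 0.510% and 0.569% of all TPM in a library. Their summed level was 5352 ± 302 TPM (SD, n = 3) in IR+NC-LV and 5201 ± 53.5 TPM (SD, n = 3) in IR+PR-LV, a difference smaller than the spread within IR+NC-LV. The median carrier stood at 14.6 TPM. Levels were uneven: 14 genes exceeded 100 TPM, 82 lay between 10 and 100, 57 lay between 1 and 10, and the 10 highest held 38.2% of the sum. At the threshold, SLC6A12 (1.07 TPM) and SLC2A12 (1.07) lay just inside and SLC27A2 (0.968), SLC40A1 (0.933) and SLC22A23 (0.840) just outside. Of the other carrier names, 129 had counts but a mean under 1 TPM and 11 had no count in any library.

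**Figure D1:**
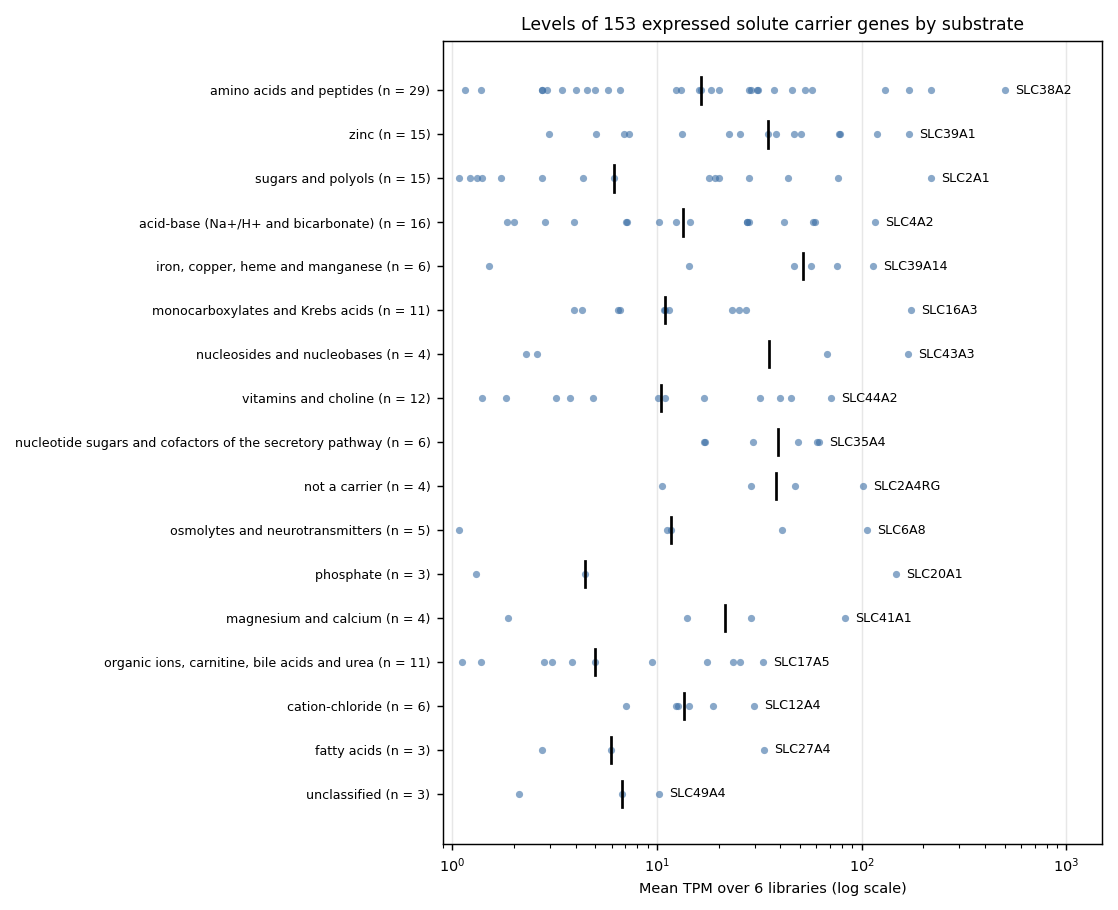
Mean TPM over 6 libraries (log scale) of each of 153 carrier genes, grouped by main substrate, with a bar at the group's median and the name of its highest gene. Amino acid carriers reached the highest level, 501 TPM for SLC38A2, while phosphate and nucleoside transport each rested on 1 or 2 genes.

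Amino acid and peptide carriers formed the largest substrate group, with 29 expressed genes of 56 names and 27.8% of the carriers' summed TPM. SLC38A2, which takes up small neutral amino acids with sodium, was the most abundant carrier of all. Its TPM was 474, 465 and 534 in IR+NC-LV and 462, 514 and 557 in IR+PR-LV, and the groups overlapped (log2 fold change 0.10, 95% interval -0.06 to 0.26). Its relative SLC38A1 averaged 218 TPM. SLC3A2, the heavy chain that carries light chains such as SLC7A5 and SLC7A11 to the plasma membrane, averaged 171 TPM, and the glutamine carrier SLC1A5 averaged 129 TPM.

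Metal carriers came next. The zinc group had 15 expressed genes of 21 names and a summed level of 699 TPM, led by the importers SLC39A1 (170 TPM) and SLC39A6 (119 TPM) and by SLC30A1 (78.5 TPM), which exports zinc from the cell. Carriers of iron, copper, heme and manganese summed to 308 TPM over 6 genes. The importer SLC39A14, which takes up several divalent metals including iron and manganese, averaged 113 TPM, the copper importer SLC31A1 75.5 TPM and SLC39A8 56.3 TPM. The magnesium and calcium group summed to 128 TPM and was led by SLC41A1, a magnesium carrier, at 83.1 TPM, followed by SLC41A3 and SLC41A2.

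Sugar transport rested on the facilitators. SLC2A1 (GLUT1), the glucose carrier of many growing cells, had 205, 207 and 244 TPM in IR+NC-LV and 223, 218 and 205 TPM in IR+PR-LV. The groups overlapped, and SLC2A1 alone held 49.1% of its group's sum. SLC2A3 (GLUT3) followed at 76.4 TPM. SLC37A3, of another family that was placed in this group, averaged 43.8 TPM. The monocarboxylate group summed to 303 TPM, of which 57.1% came from SLC16A3 (MCT4), the carrier by which glycolytic cells release lactate. SLC16A7 (MCT2) averaged 27.2 TPM and SLC16A1 (MCT1) 25.1 TPM.

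The acid-base group had 16 expressed genes and summed to 421 TPM, and it takes in the SLC26 anion carriers, not all of which carry bicarbonate. Its highest genes were the chloride-bicarbonate exchanger SLC4A2 at 117 TPM, the sodium bicarbonate carrier SLC4A7 at 59.1 TPM and the sulfate carrier SLC26A2 at 58.0 TPM. Phosphate entry rested on SLC20A1 (PiT-1), the carrier of most cell types, which averaged 147 TPM and held 96.2% of its group. The renal phosphate carrier SLC34A3 averaged 1.31 TPM and SLC20A2 4.44 TPM. Cation-chloride carriers had 6 expressed genes and summed to 94.9 TPM, with SLC12A4 (KCC1), SLC12A8 and SLC12A9 in front. Their median was 13.5 TPM.

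Nucleosides and nucleobases had 2 abundant carriers, the purine nucleobase carrier SLC43A3 at 168 TPM and the equilibrative nucleoside carrier SLC29A1 (ENT1) at 67.9 TPM, with SLC29A3 next at 2.59 TPM. Among vitamin and choline carriers, SLC44A2 averaged 70.7 TPM, SLC44A1 45.2 TPM and SLC23A2, which takes up ascorbate, 39.9 TPM. All 6 Golgi and secretory pathway names (SLC35A and related) were expressed, with SLC35A4, the CMP-sialic acid carrier SLC35A1 and the UDP-galactose carrier SLC35A2 at 61.9, 60.3 and 48.7 TPM. The creatine carrier SLC6A8 averaged 106 TPM, and the inositol carriers SLC5A3 and SLC2A13 averaged 40.6 and 11.7 TPM.

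Organic ion carriers were mostly under the threshold, with 11 expressed genes of 38 names and a sum of 126 TPM. Their highest gene, SLC17A5, exports sialic acid from lysosomes and averaged 32.8 TPM, followed by SLC22A4 at 25.5 TPM and SLC10A3 at 23.6 TPM. Fatty acid carriers were led by SLC27A4 (33.4 TPM), ahead of SLC27A1 and SLC27A5. The 3 genes with no assigned substrate, SLC49A4, SLC66A2 and SLC66A3, summed to 19.0 TPM. The rule also took in 4 genes that are named after a carrier and are not carriers: SLC2A4RG, SLC4A1AP, SLC9A3R1 and SLC9A3R2.

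A list of 51 carriers known for reabsorption or secretion along the kidney tubule divided into 13 expressed genes, 17 with counts and a mean under 1 TPM, and 21 with at most 3 counts in every library. The expressed set was led by SLC26A6, an exchanger of chloride with oxalate and other anions, at 27.6 TPM. SLC22A4 and SLC22A5, carriers of ergothioneine and carnitine, averaged 25.5 and 17.5 TPM, and the basolateral sodium bicarbonate carrier SLC4A4 averaged 14.6 TPM. SLC16A9 averaged 10.8 TPM, the glutamate carrier SLC1A1 5.76, the cationic amino acid light chain SLC7A7 4.56 and the apical Na+/H+ exchanger SLC9A3 3.92. SLC26A1, SLC23A1, SLC17A3, SLC34A3 and SLC15A2 lay between 1.15 and 1.85 TPM.

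The carriers of the classical glucose route each averaged under 1 TPM over the 6 libraries. SLC5A2 (SGLT2), which reclaims most filtered glucose, had 11, 12 and 12 counts in IR+NC-LV and 11, 16 and 10 in IR+PR-LV, a mean of 0.719 TPM. SLC5A1 (SGLT1) had no count in any library, which allows up to 0.026 CPM (counts scaled to the library's total count) over the pooled libraries, from counting error only. The basolateral glucose carrier SLC2A2 averaged 0.829 TPM, with 0.599, 1.36 and 1.08 in IR+NC-LV and 0.768, 0.563 and 0.602 in IR+PR-LV. The apical phosphate carrier SLC34A1 had between 7 and 16 counts in a library and a mean of 0.304 TPM.

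Carriers of organic anions, organic cations and urate were mostly at few counts. SLC17A3, an apical carrier of urate and organic anions, averaged 1.38 TPM with 102 counts in all. The urate carrier SLC2A9 had 413 counts and averaged 0.676 TPM. The organic anion carriers SLC22A6 (OAT1) and SLC22A8 (OAT3) and SLC22A12 (URAT1), which reabsorbs urate, had 1 count each over the 6 libraries, and SLC22A7 had none. SLC22A2 (OCT2), the basolateral organic cation carrier, had 11 counts in all, and its apical partners SLC47A1 and SLC47A2 had 4 and 23. The apical neutral amino acid carrier SLC6A19 had 3 counts, the citrate carrier SLC13A2 1 count and the lactate carrier SLC5A8 none. The carriers of the loop and distal tubule, SLC12A1 and SLC12A3, had 2 and 22 counts. The other listed genes with at most 3 counts in each library were SLC5A10, SLC5A11, SLC5A12, SLC22A11, SLC22A13, SLC13A1, SLC6A18, SLC36A2, SLC28A1, SLC4A1 and SLC14A2.

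Setting IR+PR-LV, where PRDM16 itself had only 14, 10 and 8 counts, against IR+NC-LV asks whether carrier expression differed with the PRDM16 lentivirus. It was fitted to the counts of all 15054 gene names that passed a filter on low counts, and all 153 carriers passed it. With edgeR's quasi-likelihood test and Benjamini-Hochberg adjustment, 0 of 153 carriers had an adjusted p under 0.05, beside 12 of all names tested (0.0797%). At an unadjusted p under 0.05, IR+PR-LV was higher for 4 carriers and lower for 7 (2.61% and 4.58%), beside 4.41% higher and 6.09% lower among all names. CPM values did not overlap between the groups for 4 carriers that were higher (2.61%, beside 7.45% of all names) and 16 that were lower (10.5%, beside 9.56%). These shares were near or under the background in both directions.

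The intervals show how large a difference could have gone unseen. The 95% interval of the log2 fold change lay within 1 log2 unit either way for 144 of the 153 carriers, against 13665 of 15054 names, and within 0.5 for 118. The median log2 fold change was 0.00 for the carriers and 0.00 for all names, with 78 carriers above 0 and 75 below, and the median size of a change was 0.095 for the carriers and 0.103 for all names. The intervals that passed 1 log2 unit in at least 1 direction included those of SLC7A11, SLC52A2, SLC39A4, SLC2A6, SLC43A2, SLC31A2, SLC34A3 and SLC2A11.

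**Figure D2:**
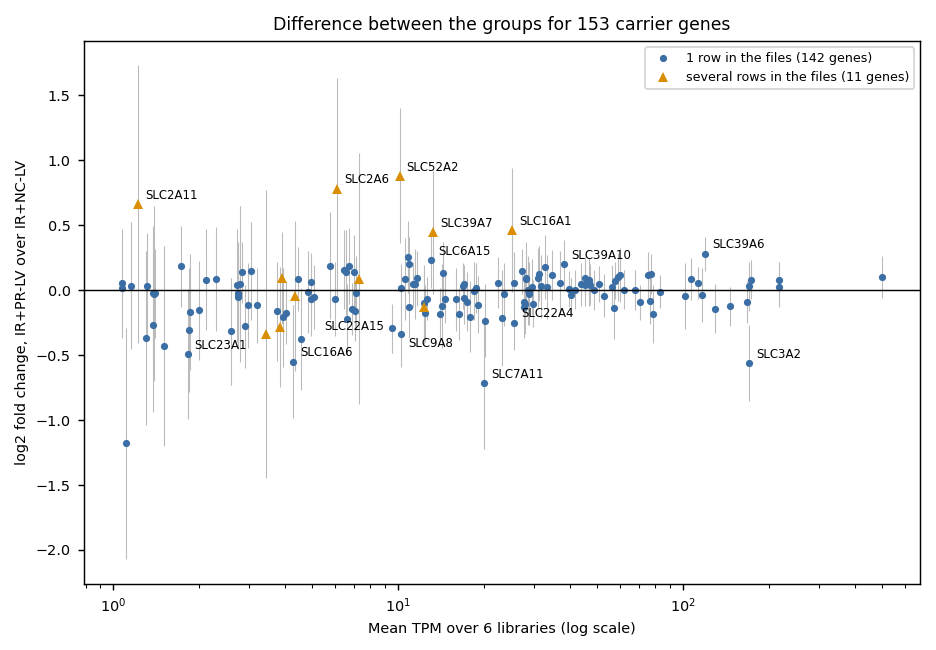
Log2 fold change of IR+PR-LV over IR+NC-LV, with its 95% interval, against mean TPM (log scale) for 153 carriers. Triangles are the 11 genes whose name has several rows in the files; 5 of them lie above the highest gene with 1 row, SLC39A6 at 0.28, and no gene passed the adjusted threshold.

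By substrate, the median log2 fold change of a group lay between -0.12 (phosphate, 3 genes) and 0.08 (monocarboxylates, 11 genes, and the 3 unclassified genes), and 8 of the 17 groups had a median above 0. Of the 29 amino acid carriers, 11 were above 0 and 18 below, with a median of -0.04. Zinc carriers had 11 above 0 and 4 below, with a median of 0.06, and all 6 secretory pathway carriers lay between 0.00 and 0.11. Organic ion carriers had 3 above 0 and 8 below, with a median of -0.09. These counts describe the groups, and none of their genes passed the adjusted threshold.

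The smallest p belonged to SLC39A6 (ZIP6, chr18:36108531-36129868, minus strand, GRCh38), a zinc importer of the plasma membrane. Its TPM was 106, 110 and 112 in IR+NC-LV and 126, 132 and 130 in IR+PR-LV. The IR+PR-LV libraries were all higher and the groups were far apart relative to their spread, at 109 ± 2.75 and 129 ± 3.10 TPM (SD, n = 3 each). The log2 fold change was 0.28 (SE 0.059, unadjusted p = 0.000751, adjusted p = 0.128 by edgeR's quasi-likelihood test). With each library left out in turn, the fold change lay between 0.26 and 0.31. With DESeq2 its adjusted p was 0.0112. The other zinc importer among the lowest p-values, SLC39A10, differed by 0.20, and by 0.13 without IR+PR-LV replicate 3.

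SLC3A2 (CD98 heavy chain, chr11:62856109-62888860, plus strand) came next. Its TPM was 188, 166 and 265 in IR+NC-LV and 151, 126 and 128 in IR+PR-LV. All 3 IR+PR-LV libraries were lower than any IR+NC-LV library, and IR+NC-LV replicate 3 was far above the other two. The log2 fold change was -0.56 (SE 0.132, unadjusted p = 0.00176, edgeR adjusted p = 0.192) and -0.39 without IR+NC-LV replicate 3. DESeq2 gave an adjusted p of 0.00218.

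SLC7A11 (xCT, chr4:138164097-138242349, minus strand) is the light chain that pairs with SLC3A2 to import cystine, the precursor of glutathione's cysteine, in exchange for glutamate. Its TPM was 19.8, 17.9 and 38.2 in IR+NC-LV and 14.1, 12.8 and 17.5 in IR+PR-LV. The groups did not overlap, but the highest IR+PR-LV library lay close to the lowest IR+NC-LV library, and IR+NC-LV replicate 3 was again far above the rest. The log2 fold change was -0.71 (SE 0.228, unadjusted p = 0.0110, edgeR adjusted p = 0.340) and -0.35 without that library.

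**Figure D3:**
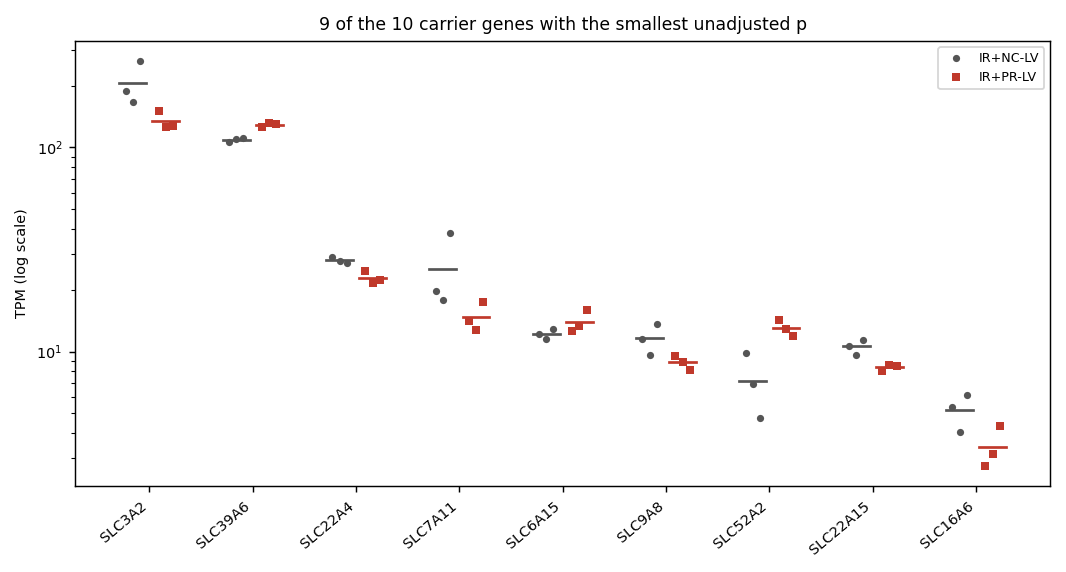
TPM (log scale) in each library, with the group mean as a bar, for 9 of the 10 carriers with the smallest unadjusted p. The SLC39A6 groups are tight and apart, and IR+NC-LV replicate 3 is the highest point of SLC3A2 (265 TPM) and SLC7A11 (38.2 TPM).

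Organic ion carriers among the 10 smallest p-values included SLC22A15 and SLC22A4, both lower in IR+PR-LV. SLC22A15 had 10.7, 9.68 and 11.4 TPM in IR+NC-LV and 8.04, 8.62 and 8.48 in IR+PR-LV, with no overlap (log2 fold change -0.29, SE 0.084, unadjusted p = 0.00599, edgeR adjusted p = 0.282). SLC22A4 had 29.0, 27.9 and 27.2 TPM in IR+NC-LV and 24.8, 21.7 and 22.5 in IR+PR-LV, again with no overlap (log2 fold change -0.25, SE 0.094, edgeR adjusted p = 0.399). Of its exon bases, 8.22% lie opposite an exon of MIR3936HG, and the sources used here do not say whether counting used strand.

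Other genes among the 10 belong to different routes. SLC9A8 (NHE8), a Na+/H+ exchanger, had 11.5, 9.67 and 13.7 TPM in IR+NC-LV and 9.55, 8.94 and 8.10 in IR+PR-LV, with a log2 fold change of -0.34 (SE 0.115, edgeR adjusted p = 0.367). SLC16A6, of the monocarboxylate family, had 5.33, 4.03 and 6.16 TPM against 2.76, 3.16 and 4.31, and the groups overlapped (log2 fold change -0.55, edgeR adjusted p = 0.388). SLC6A15, a sodium-coupled carrier of branched-chain amino acids and proline, was the amino acid carrier with an unadjusted p under 0.05 that was higher in IR+PR-LV. Its TPM was 12.2, 11.5 and 12.9 in IR+NC-LV and 12.6, 13.3 and 15.9 in IR+PR-LV, overlapping on this scale (log2 fold change 0.23, SE 0.095, edgeR adjusted p = 0.446). Without IR+PR-LV replicate 3, its highest library, the fold change was 0.13.

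The riboflavin carrier SLC52A2, also among the 10, had the largest positive change of any carrier. Its TPM was 9.79, 6.98 and 4.75 in IR+NC-LV and 14.3, 12.9 and 11.9 in IR+PR-LV, with no overlap and a log2 fold change of 0.88 (SE 0.232, unadjusted p = 0.00373, edgeR adjusted p = 0.235). Its name has 2 rows in the files, and the row that is not on an assembled chromosome held 100% of its 823 counts. For 11 carriers the name had several rows, and for 9 of them most counts were on a scaffold outside the assembled chromosomes. The 5 carriers with the highest fold changes were all of this kind: SLC52A2, the sugar carriers SLC2A6 (0.78) and SLC2A11 (0.66), SLC16A1 (0.46) and SLC39A7 (0.45), which releases zinc from the endoplasmic reticulum. Single libraries moved the last 4 by over 1.5 times. Without 1 library, SLC2A6 lay between 0.22 (without IR+PR-LV replicate 2, its highest library at 12.2 TPM) and 1.116, and SLC2A11 between 0.35 (without IR+NC-LV replicate 3) and 1.07. SLC39A7 lay between 0.24 (without IR+NC-LV replicate 2) and 0.70, and SLC16A1 between 0.295 (without IR+PR-LV replicate 3) and 0.68.

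In these 5 genes, from 99.0% to 100% of counts were on such rows. The median size of a change was 0.34 among the 11 genes with several rows, with a median SE of 0.232, against 0.089 and 0.105 among the 142 with 1 row. How reads that match several copies were assigned is not given in the sources used here, and its part in these values was not tested. For SLC16A1 the TPM was 18.3, 18.6 and 28.0 in IR+NC-LV and 18.8, 31.4 and 35.5 in IR+PR-LV, overlapping between the groups. Its level and those of the other 4 genes are therefore uncertain.

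The 10 amino acid carriers listed as ATF4 targets gave 9 tested genes, 1 above 0 (11.1%, beside 51.1% of all names) and 8 below. This list, like the lists that follow, was chosen with earlier results of these data known, so its shares describe the list and do not test it. Of the 8 whose windows were searched, 4 carry the letters printed above. SLC3A2 is among these 4, SLC6A9 is not, and SLC7A11 was not searched. For the 9 tested genes the median log2 fold change was -0.18, beside 0.00 for all names, and 0 passed the adjusted threshold. An edgeR unadjusted p under 0.05 was found for 2, SLC3A2 and SLC7A11, both lower (22.2%, beside 6.09% of all names). The groups did not overlap for 3 (33.3% lower, beside 9.56% of all names): these and the glycine carrier SLC6A9, which had 3.19, 3.0 and 3.48 TPM in IR+NC-LV and 2.51, 2.55 and 2.69 in IR+PR-LV. SLC1A4, SLC1A5, SLC7A5 and SLC43A1 differed by -0.18, -0.14, -0.14 and -0.23, and SLC7A1 by -0.04, all with overlapping groups.

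IR+NC-LV replicate 3 was the highest control library for SLC7A11, SLC3A2, SLC6A9, SLC1A4, SLC1A5, SLC7A5, SLC7A1 and SLC38A2. The light chain SLC7A5 (LAT1) had 56.0, 52.0 and 75.5 TPM in IR+NC-LV and 57.3, 52.7 and 51.03 in IR+PR-LV, and its fold change was 0.00 without that library. SLC38A2 was the gene above 0. Across all 153 carriers, this library had the highest TPM of the 6 for 69 genes (45.1%), beside 40.7% of all names tested, and the highest CPM for 34 (22.2%), beside 24.3%. It was also the shallowest library, and the part of depth in these values was not tested.

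**Figure D4:**
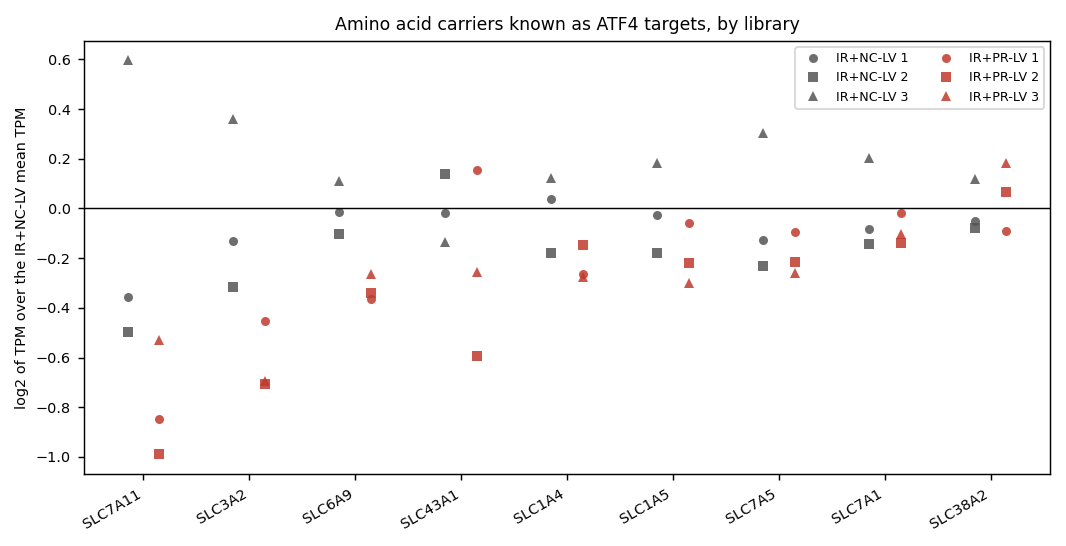
Log2 of TPM over the IR+NC-LV mean TPM in each library for the 9 tested amino acid carriers listed as ATF4 targets. IR+NC-LV replicate 3 (grey triangles) is the highest control point for every gene but SLC43A1, and SLC7A11, SLC3A2 and SLC6A9 have all 3 IR+PR-LV points under all control points.

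Of the 51 kidney tubule carriers, 20 passed the filter. Of these, 6 were above 0 (30%, beside 51.1% of all names) and 14 below, with a median log2 fold change of -0.11, and 0 passed the adjusted threshold. An unadjusted p under 0.05 was found for 2, both lower (10%, beside 6.09% of all names): SLC22A4 and SLC26A7 (-0.76, from 10 to 25 counts in a library). The ascorbate carrier SLC23A1 did not overlap between the groups in CPM and overlapped narrowly in TPM, with 2.01, 1.72 and 2.76 TPM in IR+NC-LV and 1.72, 1.25 and 1.48 in IR+PR-LV (log2 fold change -0.49). None of the tested genes on this list was higher at an unadjusted p under 0.05, and the proximal tubule markers GGT1 and GATM differed by -0.15 and 0.13 with overlapping groups.

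Pumps, chaperones and regulators that carriers depend on were abundant. BSG (basigin), which takes SLC16A1 and SLC16A3 to the plasma membrane, averaged 646 TPM, and the Na+/K+ pump beta subunits ATP1B3 and ATP1B1 averaged 373 and 283 TPM. Of 17 listed genes 16 were tested, 10 above 0 (62.5%, beside 51.1% of all names) and 6 below, with a median of 0.06 and 0 past the adjusted threshold. At an edgeR unadjusted p under 0.05, 2 were higher (12.5%, beside 4.41% of all names), among them TMEM165 (0.19). The 2 that were lower (12.5%, beside 6.09%) were NEDD4L and TXNIP. NEDD4L, a ubiquitin ligase that removes carriers and channels from the surface, was lower at 50.02 ± 3.93 against 41.2 ± 0.729 TPM (SD, n = 3 each), which is -0.24 on the log2 scale (edgeR adjusted p = 0.198). TXNIP, which drives the removal of SLC2A1 from the surface, differed by -0.35, with no overlap between the groups and an SD of 113 TPM in IR+NC-LV.

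Carriers with other names gave a similar picture. Of 26 listed, 18 were tested, 8 above 0 (44.4%, beside the same 51.1%) and 10 below, with a median of -0.02 and 0 past the adjusted threshold. FLVCR2, a choline carrier of the same superfamily as the heme exporter FLVCR1, had the smallest p, at 5.82 ± 0.632 TPM in IR+NC-LV and 3.54 ± 0.0941 TPM in IR+PR-LV (SD, n = 3 each; log2 fold change -0.67, edgeR adjusted p = 0.116). SPNS2, which exports sphingosine 1-phosphate, differed by -0.45.

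Some carriers overlap a neighbour in the annotation. More than 10% of the exon bases of 19 carriers lie opposite an exon of another gene, among them SLC31A2 (91.8%, FKBP15), SLC6A6 (57.8%, GRIP2), SLC7A6 (49.8%, SLC7A6OS) and the lactate carrier SLC16A3 (32.2%, CSNK1D). Overlaps on the same strand included SLC49A4 (56%, LINC02035) and SLC9A3 (31.4%, PP7080). Whether strand was used in counting is not given, and reads shared with the other gene were not measured.

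The choice of test set how many carriers passed. With DESeq2, 3 of the 153 carriers had an adjusted p under 0.05 (SLC39A6, SLC3A2 and SLC52A2), beside 1.02% of 14828 names with an adjusted value. With edgeR and every name with at least 1 count kept, 7 of the 153 did (among them SLC16A1, SLC2A6, SLC39A6, SLC3A2, SLC52A2 and SLC7A11), beside 1.29% of 27403 names. Those names include the ones that the filter on low counts had removed, while every carrier passed it. The carriers and that background are therefore unlike in level.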

How the data were processed

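Bulk RNA-seq was analysed for 3 IR+NC-LV and 3 IR+PR-LV libraries, grouped by their labels. Per the study's methods, poly(A) RNA was sequenced as paired-end reads and reads of low quality or with adapters were removed. The submitters' processing notes name featureCounts 2.0.1, DESeq2 1.16.1, CASAVA and hg38, while the aligner is not given in the sources used here. The authors deposited, for each library, raw read counts per gene with TPM and FPKM. The TPM values were used as deposited, and the FPKM values deposited beside them were not used in any result. Rows sharing a gene name were summed. Counts were fitted over all names with edgeR 4.0.16 in R 4.3.3 (TMM factors from 0.981 to 1.04, filterByExpr with a minimum count of 10 and total of 15, quasi-likelihood test, Benjamini-Hochberg adjustment, threshold 0.05). DESeq2 1.42.0, no filter, a replicate block, other TPM thresholds, the top row of each name in place of the sum, and leaving out each library were alternatives. Intervals are 95%. A count of 0 was read as up to 3 counts, for counting error only. The fitting script was tested on simulated data. Genes named were the 3 highest of each substrate group, the 10 smallest p, the 3 on each side of the TPM threshold and the lists given; other carriers named were chosen after their values were seen. Values of 2 of these genes are not reported here. The carriers and all lists were chosen with earlier results of these data known.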

Additional observations from a re-analysis of the deposited data

How the results depend on the processing

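The count of carriers with an adjusted p under 0.05 was 0 in edgeR, 7 without the filter on low counts and 3 with DESeq2, and it was 0 without each library in turn. Over all names the count was 12, against 354 without the filter and 151 with DESeq2, and from 2 to 35 without 1 library: 2 without IR+PR-LV replicate 3, 6 without IR+PR-LV replicate 1 and 35 without IR+NC-LV replicate 2. The cause was not tested. The carriers with an unadjusted p under 0.05, 11 in all, numbered from 7 to 34 without 1 library. All names were not counted at that p in these fits, so the range does not set carriers apart from other genes. Same-numbered libraries did not deviate together (correlations of -0.017, 0.058 and 0.059). With so few libraries this cannot show whether they were handled as pairs. With the replicate number as a block, 0 carriers and 18 of all names passed. In that fit 19 carriers had an unadjusted p under 0.05, again without a count over all names. The sign of 4 abundant carriers near 0 turned without 1 library: SLC2A1 ranged from -0.012 to 0.068, SLC39A1 from -0.056 to 0.086, SLC7A1 from -0.087 to 0.032 and SLC4A2 from -0.155 to 0.024. A TPM threshold of 0.5 gave 171 carriers and 2 gave 136, the row with the most counts in place of the sum gave 153, and leaving out 1 library gave from 152 to 155. Depth limits the silent kidney carriers, whose counts of 0 to 3 allow no comparison between groups.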
